A study of Mus musculus with 38 samples.

Results

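The comparison described here set the day 30 liver response to triadimefon against the day 30 liver response to phenobarbital. For each gene, the mean of control livers was subtracted from the mean of treated livers within each study, and the phenobarbital change was then subtracted from the triadimefon change. It used 16 of the 38 arrays of the series, and another 16 arrays gave the same difference on day 4. All animals were male CD-1 mice, an outbred stock, labelled as 6 to 8 weeks old. The 3 triadimefon livers came from mice fed triadimefon (spelled tridimefon in the labels) at 1800 ppm, an average intake of 257.1 ± 33.5 mg/kg/day, and the 3 conazole-study control livers from mice on control feed. The 5 phenobarbital livers came from mice fed 850 ppm, an average intake of 97.2 ± 5.9 mg/kg/day, and the 5 phenobarbital-study control livers from mice on control feed. The doses therefore differed between the compounds, and each compound was given in a study of its own, so that compound and study cannot be told apart beyond what each study's controls remove. The labels call the samples biological replicates and do not say whether any were pooled.

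Triadimefon is a triazole fungicide made to block the fungal sterol demethylase of the CYP51 family, and phenobarbital is a barbiturate. Phenobarbital is the classic activator of the constitutive androstane receptor CAR, a nuclear receptor of hepatocytes that switches on drug-metabolising cytochromes P450 of the Cyp2b and Cyp2c families, glutathione S-transferases, efflux transporters and heme supply. Many triazoles activate CAR and the related pregnane X receptor as well. The series title names the discrimination of these conazoles from phenobarbital as the question.

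Total RNA was hybridised to Affymetrix Mouse Genome 430 2.0 arrays. Levels are given as log2 of the quantile-normalized intensity plus 16, so that a level of 4.00 is an intensity of 0 or below. Background was set at 5.985, the 95th percentile of 37 olfactory receptor genes, which liver does not use. The deposited intensities of the conazole arrays topped out at 9267 to 11269 and those of the phenobarbital arrays at 15396 to 17989, and correlations within a group ran from 0.954 to 0.965 in the conazole study and from 0.979 to 0.984 in the phenobarbital study. The 3' minus 5' Actb signal, a sign of RNA integrity, was 0.468 to 0.513 in triadimefon livers, 0.369 to 0.430 in conazole-study controls and 0.297 to 0.393 over both phenobarbital-study groups (log2). All 12 hepatocyte identity markers measured were above background. Since the conazole arrays varied more (a variance ratio of 2.34), the day 30 differences called for single genes are given with 1 spread shared by all arrays and, beside it, with a spread per study. Each compound's own changes and the day 4 values have the shared spread unless a spread per study is named. In whole liver, a lower signal from a rarer cell type cannot be told apart from less RNA per cell of that type.

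Of 17682 genes tested, 657 (3.72%) had a different change under triadimefon than under phenobarbital on day 30 (limma, Benjamini-Hochberg adjusted p under 0.05): 227 (1.28%) with a higher triadimefon change and 430 (2.43%) with a lower one. With a spread per study, 296 genes were called (1.67%), 89 higher and 207 lower, and 295 of the 657 were among them. Triadimefon changed 2198 genes against its own controls (12.4%), 935 higher (5.29%) and 1263 lower (7.14%). Phenobarbital changed 0.871% of the genes, 109 higher (0.616%) and 45 lower (0.254%). With a spread per study the totals were 807 and 409, so the gap between the compounds in how many genes moved was smaller there. Of the 657 genes, 604 were called for triadimefon and not for phenobarbital, 7 for phenobarbital and not for triadimefon, 2 (Abcc4 and Nsl1) for both, and 44 for neither.

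Both compounds changed 71 genes, 60 upwards and 11 downwards, every one of them in the same direction, and 69 of these were not called in the difference. The 71 made up 46.1% of the phenobarbital genes and 3.23% of the triadimefon genes. With a spread per study, 73 genes were changed by both, 68 in the same direction and 5 in opposite directions, which is 17.8% of the phenobarbital genes and 9.05% of the triadimefon genes. Over the 11285 genes above background in at least 1 of the 4 groups, the 2 changes had a Pearson correlation of 0.354, as a description across genes that share the same arrays.

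**Figure D1:**
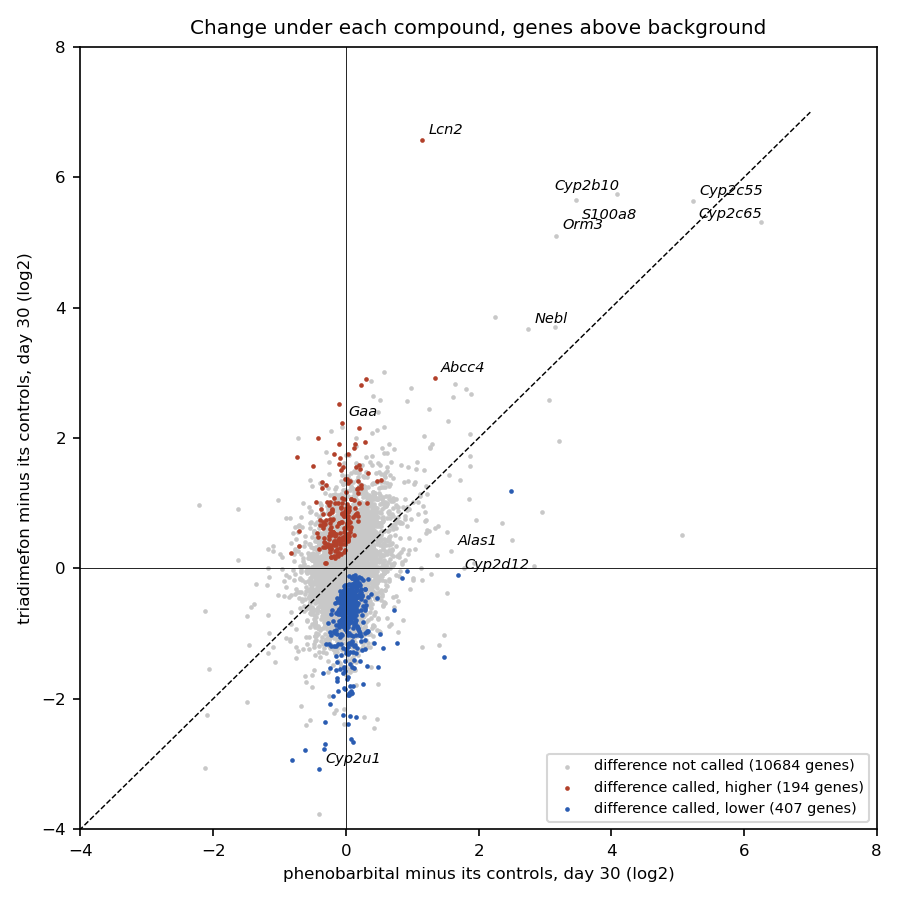
Change on day 30 under triadimefon (vertical axis, log2) against change under phenobarbital (horizontal axis, log2), each from its own study's controls, for the 11285 genes above background in at least 1 group. The dashed line marks equal changes; the called genes spread mostly up and down the vertical axis, while Cyp2c55, Cyp2c65 and Cyp2b10 lie far from 0 on both axes.

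The difference also depends on both control groups. Levels set across the studies carry any array effect between them, so they are given as a description: among the 227 genes called higher, the conazole-study and phenobarbital-study controls were further apart than the treated groups for 80 (35.2%), among the 430 called lower for 86 (20%), and among all genes tested for 43.7%.

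Cyp2b10, Cyp2c55 and Cyp2c65, P450s of the families that phenobarbital induces, rose with both compounds. None of the CYP2B (4 measured) or CYP2C (11 measured) enzymes was called in the difference, and lists of this size hold under 1 call at the share over all genes (3.72%). Cyp2b10, the main Cyp2b enzyme induced through CAR, was at 12.94, 12.97 and 12.82 in triadimefon livers and 6.50, 5.87 and 9.15 in their controls. It was at 12.74, 12.84, 12.74, 12.66 and 12.61 in phenobarbital livers and 8.48, 8.42, 7.77, 9.25 and 9.24 in theirs. Treated and control groups did not overlap in either study, and 1 of the 3 conazole-study controls stood well above the other two. Cyp2b10 thus rose 53.4-fold with triadimefon (adjusted p = 1.77e-08) and 17-fold with phenobarbital (adjusted p = 6.68e-08), and the log2 changes differed by 1.65 ± 0.61 (SE, adjusted p = 0.132, or 0.193 with a spread per study), with a 95% interval of 0.39 to 2.92. Without conazole-study control replicate 3, the high array, that difference was 2.65 and passed (adjusted p = 0.000712); 1 library therefore decides this call.

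Cyp2c55, a P450 that makes hydroxylated arachidonic acid and is scarce in untreated liver, was at 12.49, 12.49 and 12.39 in triadimefon livers against 6.51, 5.99 and 7.95 in their controls. In phenobarbital livers it was at 12.06, 12.30, 12.44, 12.09 and 12.17, against 7.22, 6.92, 7.07, 6.62 and 7.07 in theirs. The rises of 49.7-fold and 37.5-fold differed by 0.41 ± 0.42 on the log2 scale (SE, 95% interval -0.45 to 1.26, adjusted p = 0.687). Its relative Cyp2c65 was at 9.28, 9.65 and 9.29 in triadimefon livers and at 4.26, 4.00 and 4.00 in their controls. Phenobarbital livers had 10.42, 10.19, 10.79, 10.46 and 10.35, and their controls 4.14, 4.37, 4.34, 4.07 and 4.00. All controls of both studies were below background, so Cyp2c65 rose at least 10.7-fold with triadimefon and at least 22-fold with phenobarbital. The difference was -0.94 ± 0.50 (SE, 95% interval -1.96 to 0.08, adjusted p = 0.334); it passed after quantile normalization within each study (-1.69, adjusted p = 0.0378) and in the fit of the 16 day 30 arrays (-0.92, adjusted p = 0.0253).

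In the rest of these families, 5 CYP2C enzymes rose and 1 fell with triadimefon, and 5 rose with phenobarbital, the same 5 in both (Cyp2c37, Cyp2c50, Cyp2c54, Cyp2c55 and Cyp2c65). Cyp2c37 changed by 2.58 under triadimefon and 3.06 under phenobarbital (log2), and Cyp2c54 by 1.36 and 1.71. Of the CYP2B enzymes, 1 rose with triadimefon and 3 with phenobarbital, beside 5.29% and 0.616% of all genes. With a spread per study these CYP2B counts were the same, and 5 CYP2C enzymes rose with triadimefon, against 6 that rose and 1 that fell with phenobarbital. Cyp2b9 and Cyp2b13, which are more abundant in female mouse liver, had changes of 1.95 and 0.87 under triadimefon that missed the threshold, and rose by 3.21 and 2.95 under phenobarbital; their differences of -1.25 and -2.09 missed it too (adjusted p = 0.516 and 0.0904). The median difference was -0.84 over the CYP2B list and -0.15 over the CYP2C list, beside -0.0063 over all genes. Probe sets of near-identical P450 paralogs can share signal, which leaves the assignment to a single member uncertain.

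**Figure D2:**
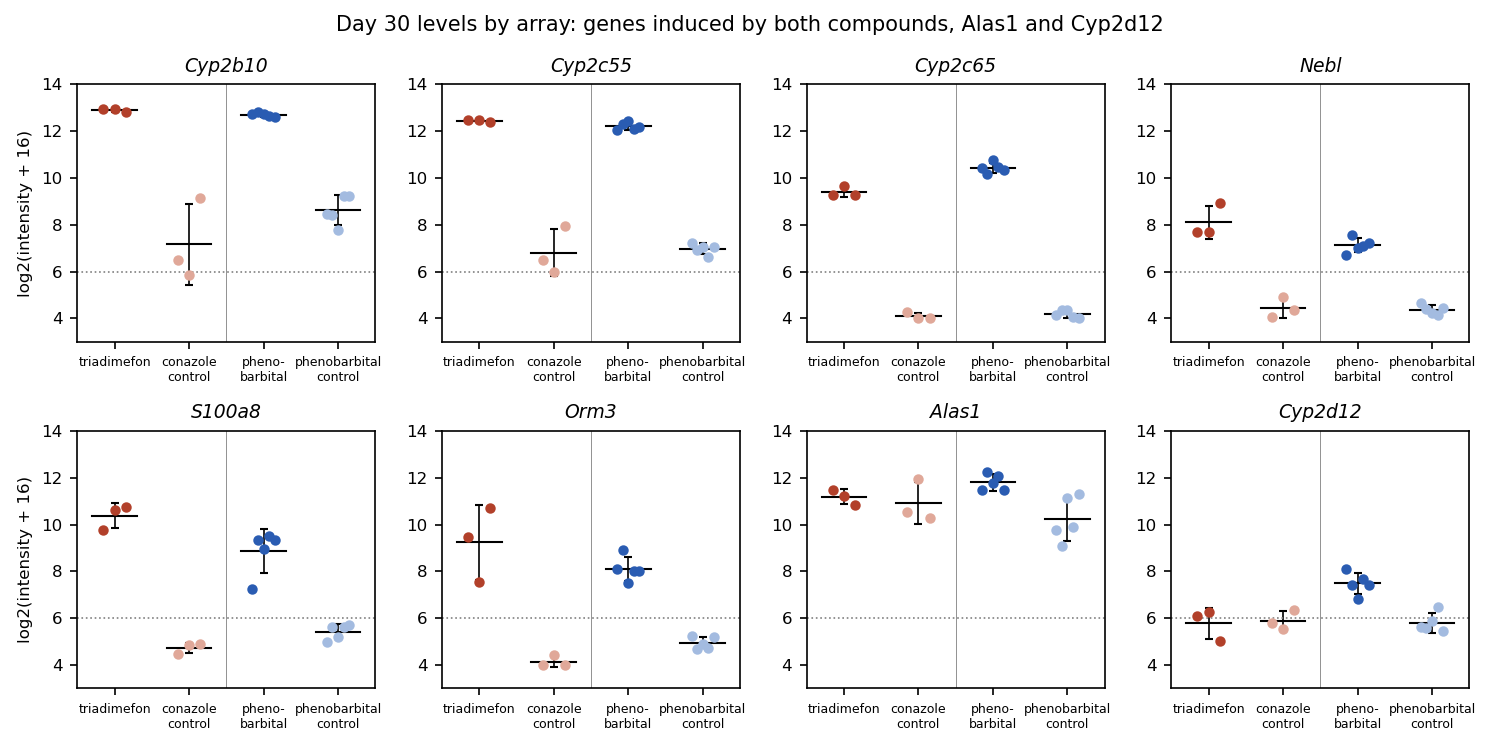
Levels (vertical axis, log2 of intensity plus 16) in each of the 16 day 30 arrays for 6 genes changed by both compounds, Alas1 and Cyp2d12; points are arrays, black bars are group means with SD, and the dotted line is background (5.985). Cyp2c55 sits at 12.49, 12.49 and 12.39 with triadimefon and between 12.06 and 12.44 with phenobarbital, while Cyp2d12 stands clear of its controls with phenobarbital and not with triadimefon.

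Of 7 mu class glutathione S-transferases, which conjugate electrophiles, 3 rose with triadimefon and 4 with phenobarbital, also with a spread per study, and none was called in the difference. With the shared spread, 5.29% of all genes rose with triadimefon and 0.616% with phenobarbital. Gstm3 changed by 1.72 under triadimefon and 1.87 under phenobarbital (log2), a difference of -0.16 ± 0.18 (SE). The carboxylesterase Ces2a rose by 0.77 and 0.67 under the same compounds. None of 11 UDP-glucuronosyltransferases, 12 sulfotransferases, 11 carboxylesterases, 16 P450 partners and other phase I enzymes, 9 genes of the aryl hydrocarbon receptor and its targets, 10 uptake transporters and 22 liver nuclear receptors was called in the difference. Gstz1, a zeta class enzyme of tyrosine breakdown, was the 1 of 14 other glutathione S-transferases with a call, at -0.31 ± 0.088 (SE, adjusted p = 0.042, or 0.132 with a spread per study).

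Among 15 CYP2A, 2D, 2E, 2F, 2J and 2U enzymes, 2 differed and both had a lower triadimefon change, in opposite ways. The share called lower over all genes was 2.43%. Cyp2d12, a P450 of the Cyp2d cluster, was at 6.08, 6.26 and 5.02 in triadimefon livers and 5.80, 5.53 and 6.35 in their controls, groups that overlapped. Phenobarbital livers had 8.10, 7.43, 6.83, 7.66 and 7.42, all above the 5.61, 5.56, 5.88, 6.48 and 5.43 of their controls. Cyp2d12 rose 3.24-fold with phenobarbital (adjusted p = 0.000189) and changed by -0.11 under triadimefon, a difference of -1.80 ± 0.40 (SE, adjusted p = 0.0111, or 0.0486 with a spread per study). It was called for phenobarbital and not for triadimefon, as were only 7 of the 657 genes.

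Cyp2u1, which hydroxylates long-chain fatty acids, moved with triadimefon instead. It was at 5.06, 5.49 and 4.69 in triadimefon livers, all below background, against 8.50, 7.90 and 8.08 in their controls. Phenobarbital livers were at 7.59, 8.17, 8.14, 8.43 and 7.75 and overlapped their controls at 8.45, 8.39, 8.60, 8.27 and 8.43. Cyp2u1 fell at least 4.51-fold with triadimefon (adjusted p = 2.22e-05), and the difference from phenobarbital was -2.67 ± 0.53 (SE, adjusted p = 0.00497, or 0.0275 with a spread per study). Of 5 CYP3A enzymes, the main inducible Cyp3a11 was near the top of the range in all 16 arrays. It changed by 0.066 under triadimefon and 0.0077 under phenobarbital. Whether a further rise could be measured there was not tested. Cyp3a44, a female-biased Cyp3a enzyme, rose by 1.001 with triadimefon and changed by -0.12 with phenobarbital, a difference of 1.13 ± 0.32 (SE, adjusted p = 0.0489, or 0.132 with a spread per study).

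Of 16 ABC transporters, 2 efflux pumps had a higher triadimefon change, and with a spread per study neither passed. The share called higher over all genes was 1.28%. Abcc4, which exports drug conjugates and bile acids to blood, was at 7.49, 7.11 and 6.73 in triadimefon livers and 4.10, 4.00 and 4.46 in their controls. It was at 7.33, 7.81, 7.22, 6.88 and 7.27 in phenobarbital livers and 5.73, 6.16, 5.63, 6.08 and 6.23 in theirs. Both compounds raised it, and the conazole-study controls were the lowest group. The difference on measured levels was 1.58 ± 0.43 (SE, adjusted p = 0.0337, or 0.0715 with a spread per study), and it passed in 7 of 16 fits without 1 array. Since all conazole-study controls were below background, the rise with triadimefon is given as at least 2.18-fold, beside 2.53-fold with phenobarbital, and this bound does not show which rise was larger. Abcb1a, a P-glycoprotein, was at 6.21, 6.31 and 5.65 in triadimefon livers, of which 2 of 3 were above background, and below background on all 13 other day 30 arrays; its difference was 1.09 ± 0.25 (SE, adjusted p = 0.0128, or 0.0564 with a spread per study). The Abcb1a rise with triadimefon is given as at least 1.05-fold. Abcc3 rose by 1.07 with triadimefon and 0.75 with phenobarbital and was not called in the difference.

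None of the 12 heme genes was called in the difference on day 30. Alas1, whose enzyme sets the pace of heme synthesis, was at 11.49, 11.22 and 10.85 in triadimefon livers and 10.53, 11.95 and 10.30 in their controls, which overlapped. It was at 11.46, 12.27, 11.78, 12.09 and 11.48 in phenobarbital livers, above the 9.78, 9.07, 11.12, 9.89 and 11.30 of their controls. The rise with phenobarbital was 1.59 (adjusted p = 0.0201) and the change with triadimefon 0.26, and the difference of -1.32 ± 0.57 had a 95% interval of -2.49 to -0.15 (adjusted p = 0.21). Gadd45b, a growth arrest and DNA damage gene that CAR activators induce, rose with triadimefon (2.27, adjusted p = 0.0126) and changed by 1.53 with phenobarbital (adjusted p = 0.141). The Gadd45b difference was 0.73 (95% interval -0.82 to 2.29), and none of 11 CAR growth and stress targets was called.

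The largest difference among the named genes was in Lcn2, which codes for lipocalin 2, an iron-sequestering protein of the acute phase and of neutrophils. Lcn2 was at 11.76, 8.88 and 12.61 in triadimefon livers and at 5.20, 4.34 and 4.00 in their controls. In phenobarbital livers it was at 7.10, 6.91, 7.23, 7.35 and 7.14, against 6.83, 5.54, 5.84, 5.78 and 5.98 in theirs. The triadimefon livers were spread widely but lay far above the conazole-study controls, all of them below background, and the phenobarbital livers lay just above their own. On day 4, the phenobarbital-study controls were at 11.62, 12.29, 6.77, 6.53 and 6.86, so levels this high also occurred in untreated livers of the series. Lcn2 rose at least 34.3-fold with triadimefon (adjusted p = 0.000336) and changed 2.22-fold with phenobarbital (adjusted p = 0.779). The difference was 5.42 ± 1.44 (SE, adjusted p = 0.0305, or 0.121 with a spread per study); it passed in 10 of 16 fits that each left out 1 day 30 array, and missed the threshold without triadimefon replicates 1 or 3, conazole-study control replicates 2 or 3, phenobarbital replicate 2 or phenobarbital-study control replicate 1, with an adjusted p of up to 0.0880 (without triadimefon replicate 3).

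Other acute phase genes rose with triadimefon without a called difference. Of 25 acute phase proteins, 9 rose and 1 fell with triadimefon, 2 rose with phenobarbital, and Lcn2 alone was called in the difference; the median difference was 0.22 and 23 of the 25 were positive. With a spread per study, 3 rose and 1 fell with triadimefon and 3 rose with phenobarbital. Over all genes and with the shared spread, 5.29% rose with triadimefon and 0.616% with phenobarbital. Orm3, an alpha-1 acid glycoprotein that carries drugs in plasma, was at 9.48, 7.54 and 10.72 in triadimefon livers and 4.00, 4.42 and 4.00 in their controls. It was at 8.12, 8.90, 7.51, 8.01 and 8.01 in phenobarbital livers and 5.22, 4.70, 4.89, 4.74 and 5.18 in theirs, and the difference of 1.94 had a 95% interval of -0.69 to 4.57 (adjusted p = 0.467). S100a8, a calcium-binding protein of neutrophils and activated macrophages, was at 9.78, 10.62 and 10.74 in triadimefon livers and 4.46, 4.85 and 4.87 in their controls. It was at 7.24, 9.34, 8.97, 9.51 and 9.35 in phenobarbital livers and 4.98, 5.60, 5.17, 5.61 and 5.72 in theirs. It rose at least 21-fold and at least 7.45-fold with the 2 compounds, with a difference of 2.19 (95% interval -0.31 to 4.68, adjusted p = 0.365).

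The serum amyloid genes Saa2 and Saa3 rose by 3.01 and 1.48 with triadimefon and changed by 0.58 and 0.13 with phenobarbital, but the differences of 2.43 and 1.35 missed the threshold (adjusted p = 0.332 and 0.213). Hamp, which codes for the iron regulator hepcidin, was the acute phase gene that fell with triadimefon (-2.17, adjusted p = 0.012); its difference was -2.02 (adjusted p = 0.115). Of 11 neutrophil proteins, Lcn2 and Elane were called, 5 had a positive difference, 5 a negative one and 1 none, and Elane was below background on all 16 arrays, as were the group means of Camp, Mmp8, Mmp9 and Csf3r. The summed intensity of the neutrophil list was 2505 to 8972 in triadimefon livers, 574 to 721 in their controls, 547 to 1119 in phenobarbital livers and 358 to 485 in theirs. It adds linear intensities, so bright genes such as Lcn2 weigh most, and it does not show a rise across the list. The part of neutrophil numbers in these results was not tested.

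None of 21 macrophage markers was called in the difference. Triadimefon raised 10 of the 21 (5.29% of all genes), and phenobarbital none (0.616% of all genes); with a spread per study the 10 became 3. The median difference was 0.67, beside -0.0063 over all genes, and 18 of 21 were positive. Adgre1, the F4/80 antigen, rose by 1.13 with triadimefon and changed by 0.34 with phenobarbital, Timd4 by 1.72 and 0.39, and Marco, a scavenger receptor, by 2.65 and 0.41. Their differences were 0.79, 1.32 and 2.24 (adjusted p = 0.131, 0.112 and 0.149). The summed intensity of the list was 8481, 19260 and 27950 (lowest, median and highest) in triadimefon livers and 7137 to 9157 in their controls, so 1 triadimefon liver lay within the control range. It was 9446 to 15770 in phenobarbital livers and 7157 to 9928 in theirs.

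Of 15 T, B and NK cell markers and 21 sinusoidal endothelial markers, 3 were called in the difference, beside 3.72% of all genes. Ptprc, the pan-leukocyte antigen CD45, was at 9.36, 7.71 and 8.75 in triadimefon livers and 6.86, 7.37 and 7.20 in their controls, against 7.48, 7.30, 7.40, 7.31 and 7.75 in phenobarbital livers and 7.28, 7.33, 6.93, 6.88 and 7.12 in theirs. The Ptprc difference was 1.13 ± 0.32 (SE, adjusted p = 0.0475, or 0.0902 with a spread per study) and was the 1 call among 15 T, B and NK cell markers, 9 of which were below background in all 4 groups. It passed in 4 of 16 fits without 1 array (adjusted p of up to 0.171, without triadimefon replicate 1), and 1 of its 2 probe sets gave the opposite sign. Over the 15 markers the median difference was -0.21, with 3 positive and 12 negative. Tlr4, the receptor for bacterial lipopolysaccharide, was at 6.89, 5.85 and 6.03 in triadimefon livers, of which 2 of 3 were above background, and below background on every other day 30 array, with a difference of 2.02 ± 0.44 (SE, adjusted p = 0.00952, or 0.0198 with a spread per study). Blk, a kinase of B cells, had a difference of 1.94 ± 0.48 (SE, adjusted p = 0.0211, or 0.0292 with a spread per study). It was at 7.30, 7.42 and 7.25 in triadimefon livers and 4.00, 5.66 and 7.03 in their controls. All day 30 phenobarbital-study arrays were below background for Blk. Tcl1, a lymphocyte cofactor of AKT kinase, differed by 1.95 ± 0.39 (SE, adjusted p = 0.00532, or 0.0387 with a spread per study). It was at 6.12, 6.33 and 6.36 in triadimefon livers, just above background, and below background on every other day 30 array. The Tcl1 rise with triadimefon is given as at least 1.22-fold. Of 21 sinusoidal endothelial markers, Cdh5 (VE-cadherin) and Mrc1 (the mannose receptor) had higher triadimefon changes, 1.05 and 0.57, which did not pass with a spread per study (adjusted p = 0.0618 and 0.0952). The median difference of that list was -0.0076, with 10 positive and 11 negative. The endothelial sum was 7864 to 8668 in triadimefon livers, 8143 to 9188 in their controls, 8346 to 9457 in phenobarbital livers and 8380 to 9585 in theirs.

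The 12 largest higher differences also included genes of other roles. Gaa, the lysosomal acid alpha-glucosidase that breaks down glycogen, was at 9.13, 9.14 and 9.19 in triadimefon livers and 6.72, 6.37 and 7.67 in their controls. Phenobarbital livers were at 8.70, 8.65, 8.46, 8.39 and 8.53 and overlapped their controls at 8.49, 8.70, 8.64, 8.41 and 8.78. Triadimefon raised Gaa 4.71-fold, and the difference was 2.29 ± 0.29 (SE, adjusted p = 0.000102, or 0.00018 with a spread per study), the smallest adjusted p among the 12; the conazole-study controls were the low group, 1.68 below the phenobarbital-study controls. Vnn1, a pantetheinase and PPAR-alpha target, was at 7.31, 7.85 and 7.97 in triadimefon livers and 6.02, 5.68 and 6.33 in their controls, against 5.63, 5.39, 5.30, 5.20 and 6.09 in phenobarbital livers and 6.09, 6.21, 6.17, 5.46 and 7.34 in theirs. Here the 3 triadimefon livers were the high arrays but for 1 phenobarbital-study control, and the difference was 2.43 ± 0.61 (SE, adjusted p = 0.0222, or 0.0998 with a spread per study). Cers6, a ceramide synthase that makes palmitoyl ceramide, was at 8.12, 7.14 and 7.31 in triadimefon livers and 5.92, 5.73 and 5.21 in their controls; its difference was 1.78 ± 0.35 (SE, adjusted p = 0.00412, or 0.0211 with a spread per study). With these controls below background, the rise of Cers6 with triadimefon is given as at least 2.91-fold.

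For 3 further genes the conazole-study controls were the lowest group. Fbxw9, which codes for an F-box protein of ubiquitin ligases, was at 8.23, 7.53 and 7.98 in triadimefon livers and 5.67, 4.00 and 5.62 in their controls, all below background, while phenobarbital livers were at 8.05, 8.42, 8.04, 8.01 and 7.80 and their controls at 7.58, 7.66, 8.09, 7.83 and 8.01. Atg16l2, a relative of the autophagy protein ATG16L1, was at 7.17, 5.75 and 8.34 in triadimefon livers and 4.00, 4.52 and 4.00 in their controls, against 7.86, 7.39, 7.19, 6.93 and 7.49 in phenobarbital livers and 7.40, 7.23, 7.23, 6.81 and 6.68 in theirs. For both, the 3 conazole-study controls were the lowest arrays; 1 triadimefon liver was also below background for Atg16l2. The differences were 2.59 ± 0.39 (SE, adjusted p = 0.000502, or 0.00211 with a spread per study) for Fbxw9, 2.61 ± 0.63 (SE, adjusted p = 0.0186, or 0.036 with a spread per study) for Atg16l2 and 2.42 ± 0.46 (SE, adjusted p = 0.00327, or 0.00942 with a spread per study) for the zinc finger gene Zfp112, whose conazole-study controls were lowest as well. With those controls below background, the rises with triadimefon are given as at least 3.81-fold for Fbxw9, 2.14-fold for Atg16l2 and 1.34-fold for Zfp112. For Fbxw9, 1 of its 2 probe sets gave the opposite sign. Arrdc1, an arrestin-domain protein of vesicle budding, and S100b, a calcium-binding protein, completed the 12, at 2.62 ± 0.64 (SE, adjusted p = 0.02, or 0.055 with a spread per study) and 1.79 ± 0.32 (SE, adjusted p = 0.00185, or 0.00548 with a spread per study); the second of the 2 S100b probe sets had the opposite sign. On day 30, S100b was above background only in 2 of the 3 triadimefon livers, a rise of at least 1.37-fold.

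**Figure D3:**
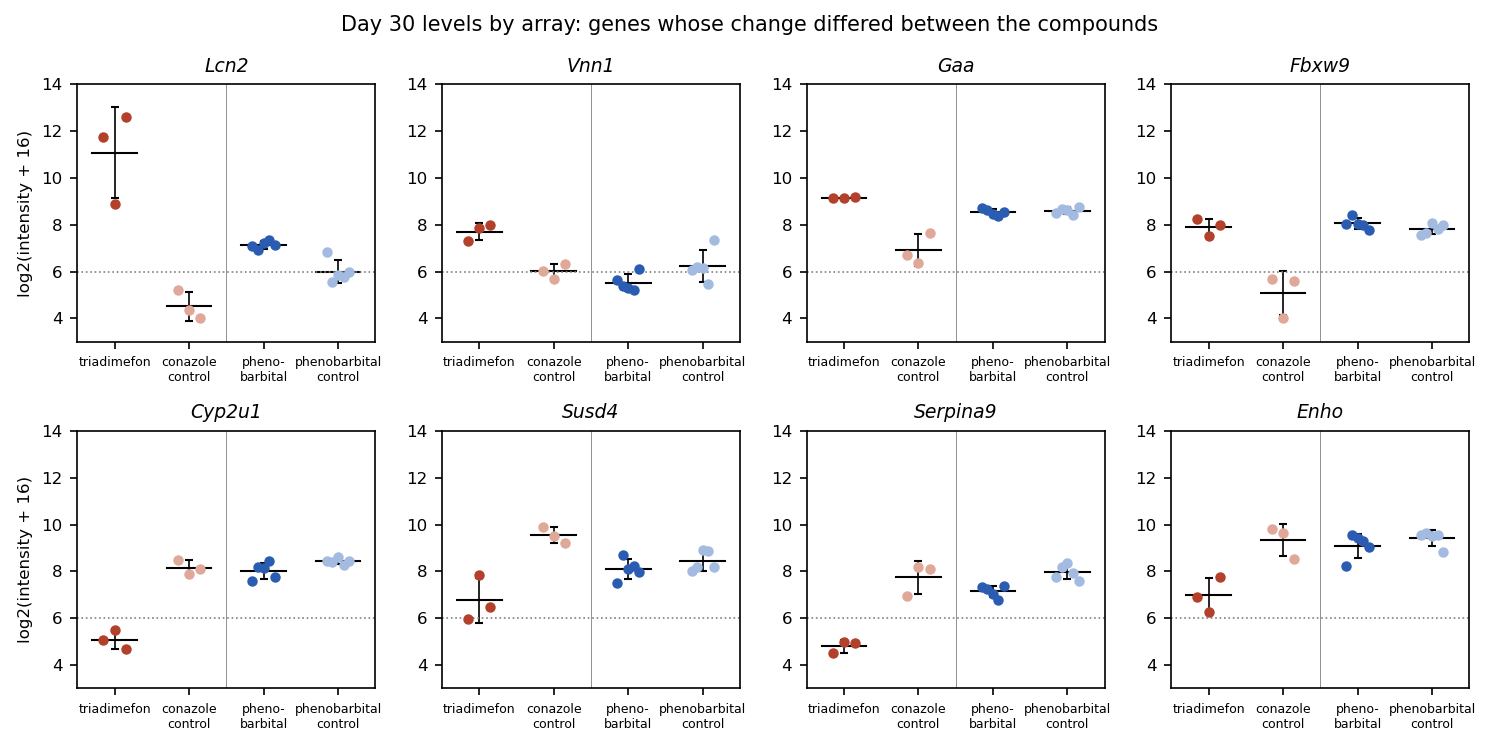
Levels (vertical axis, log2 of intensity plus 16) in each of the 16 day 30 arrays for 4 genes with a higher and 4 genes with a lower triadimefon change; points are arrays, black bars are group means with SD, and the dotted line is background (5.985). In the panels of Gaa and Fbxw9 the conazole-study controls are the group that stands apart, and in those of Cyp2u1, Serpina9 and Enho the triadimefon livers.

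On the other side, most of the large lower differences were in genes that were low in triadimefon livers and not called for phenobarbital. Aldh3b2, an aldehyde dehydrogenase of lipid aldehydes, was at 4.00, 4.00 and 4.00 in triadimefon livers and 6.58, 6.80 and 6.61 in their controls, and at 6.43, 7.24, 7.08, 7.12 and 7.07 in phenobarbital livers and 6.69, 7.20, 7.07, 6.69 and 6.76 in theirs. The 3 triadimefon livers were thus alone at the floor on day 30, and the difference was -2.76 ± 0.43 (SE, adjusted p = 0.000739, or 0.00299 with a spread per study). The untreated conazole-study controls of day 4 were also below background for Aldh3b2, at 4.00, 5.53 and 4.98. Vegfb, a growth factor that steers fatty acid uptake across endothelium, was at 4.00, 5.79 and 4.14 in triadimefon livers and 6.73, 6.92 and 7.09 in their controls, against 8.05, 7.59, 7.39, 7.17 and 7.33 in phenobarbital livers and 7.14, 7.68, 7.53, 7.12 and 7.74 in theirs. Every day 30 triadimefon liver was below background and every other day 30 array above it, with a difference of -2.33 ± 0.43 (SE, adjusted p = 0.00301, or 0.0127 with a spread per study). The same held for Armc6, an armadillo repeat gene, at -2.43 ± 0.35 (SE, adjusted p = 0.000304, or 0.000509 with a spread per study), and Scrn2, a secernin, fell by 2.25 with triadimefon and differed by -2.20 ± 0.31 (SE, adjusted p = 0.000246, or 0.000549 with a spread per study). With every triadimefon liver below background, the falls of Aldh3b2, Vegfb and Armc6 can be given only as at least 1.60-fold, 1.90-fold and 1.76-fold.

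Secreted proteins were among them. Enho, which codes for adropin, a liver peptide linked to energy balance, was at 6.90, 6.25 and 7.77 in triadimefon livers and 9.80, 9.66 and 8.54 in their controls, against 8.24, 9.54, 9.41, 9.28 and 9.03 in phenobarbital livers and 9.55, 9.65, 9.50, 9.56 and 8.81 in theirs. All 3 triadimefon livers were below every other array, and the difference was -2.05 ± 0.53 (SE, adjusted p = 0.0278, or 0.0828 with a spread per study). Pla1a, a phospholipase that cleaves phosphatidylserine, was at 6.12, 4.00 and 6.09 in triadimefon livers and 7.06, 9.06 and 8.19 in their controls, with phenobarbital livers at 8.89, 7.70, 8.32, 7.66 and 9.01 and their controls at 8.86, 8.78, 8.39, 9.03 and 8.11; its difference was -2.38 ± 0.58 (SE, adjusted p = 0.0186, or 0.0483 with a spread per study). Of 12 Serpina clade genes, which code for secreted protease inhibitors, 2 differed, beside 3.72% of all genes. Serpina9 was at 4.49, 4.99 and 4.94 in triadimefon livers and 6.93, 8.20 and 8.09 in their controls, against 7.31, 7.23, 7.05, 6.78 and 7.37 in phenobarbital livers and 7.74, 8.18, 8.35, 7.93 and 7.61 in theirs, a difference of -2.12 ± 0.49 (SE, adjusted p = 0.0131, or 0.0486 with a spread per study). For the channel genes Asic1 and Kcnk1 other groups stood apart: Asic1 was above background in 2 of the 3 conazole-study controls and on no other day 30 array (controls at 7.09, 6.99 and 5.88), with a difference of -2.70 ± 0.55 (SE, adjusted p = 0.00592, or 0.0237 with a spread per study), and the Kcnk1 difference of -2.83 ± 0.81 (SE, adjusted p = 0.048, or 0.133 with a spread per study) passed in 6 of 16 fits without 1 array, and was -1.80 without conazole-study control replicate 1. The triadimefon livers were below background for Serpina9 and Asic1, so these falls are given as at least 3.38-fold and at least 1.59-fold.

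Male-biased liver genes depend on pulsed growth hormone. Of 17 measured, 8 fell with triadimefon (4 with a spread per study) and none with phenobarbital (1 with a spread per study). In the difference 2 were called lower, and the median difference was -0.58, with 2 positive and 15 negative. Over all genes, 7.14% fell with triadimefon, 0.254% fell with phenobarbital and 2.43% were called lower in the difference. Susd4, a complement regulator, was at 5.97, 7.82 and 6.49 in triadimefon livers and 9.90, 9.50 and 9.22 in their controls, against 7.48, 8.70, 8.09, 8.24 and 7.97 in phenobarbital livers and 8.02, 8.17, 8.90, 8.87 and 8.19 in theirs, a difference of -2.44 ± 0.54 (SE, adjusted p = 0.0105, or 0.0524 with a spread per study). Serpina4-ps1, a transcribed Serpina pseudogene, was at 8.62, 8.95 and 7.74 in triadimefon livers and 10.29, 11.61 and 11.79 in their controls, against 11.56, 11.996, 11.10, 12.07 and 11.81 in phenobarbital livers and 11.86, 12.45, 12.52, 12.52 and 12.28 in theirs, a difference of -2.17 ± 0.53 (SE, adjusted p = 0.0195, or 0.0486 with a spread per study). Slco1a1, an organic anion importer, and Hsd3b5, a steroid dehydrogenase, fell by 0.65 and by 1.003 with triadimefon, and their differences of -0.58 and -0.84 missed the threshold (adjusted p = 0.077 and 0.105). Of 17 female-biased liver genes, 2 rose and 1 fell with triadimefon, 2 rose with phenobarbital, and 1 was called higher in the difference. The median difference of the female-biased list was 0.11, with 10 positive and 7 negative. Of 16 growth hormone axis genes, Stat5b, the transcription factor that carries the pulse signal, was called, at 0.74 ± 0.17 (SE, adjusted p = 0.0134, or 0.0555 with a spread per study); 1 of its 2 probe sets gave the opposite sign.

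Subunits of the mitochondrial respiratory chain had small changes. Of 38 nuclear-coded subunits and cytochromes measured, 13 fell with triadimefon (6 with a spread per study), none rose, and none changed with phenobarbital. In the difference 6 were called lower, 2 of them (Uqcrc1 and Sdhd) also with a spread per study. Over all genes, 7.14% fell with triadimefon, 0.871% changed with phenobarbital and 2.43% were called lower in the difference. At the phenobarbital share a list of this size holds few calls, so nothing is read from that count of none. The median difference was -0.15, beside -0.0063 over all genes, and 34 of 38 were negative. Uqcrc1, a core subunit of complex III, was at 11.33, 11.32 and 11.37 in triadimefon livers and 11.90, 11.82 and 11.95 in their controls, and at 12.11, 12.11, 12.03, 12.14 and 12.10 in phenobarbital livers and 11.99, 12.09, 12.02, 12.06 and 12.21 in theirs. The triadimefon livers were the lowest arrays and the phenobarbital groups overlapped. The Uqcrc1 difference was -0.58 ± 0.091 (SE, adjusted p = 0.000739, or 0.0088 with a spread per study). Sdhd, a membrane anchor of complex II, was at 11.15, 11.05 and 10.69 in triadimefon livers and 11.53, 11.65 and 11.65 in their controls, against 11.65, 11.66, 11.63, 11.72 and 11.63 in phenobarbital livers and 11.75, 11.91, 11.74, 11.77 and 11.75 in theirs, a difference of -0.52 ± 0.099 (SE, adjusted p = 0.00337, or 0.00917 with a spread per study). Cyc1 (cytochrome c1 of complex III), Ndufv1 (the NADH-binding subunit of complex I), Atp5a1 (the alpha subunit of ATP synthase) and Uqcrq differed by -0.36, -0.35, -0.26 and -0.23 (adjusted p = 0.0204, 0.0134, 0.0139 and 0.0339, and 0.0587, 0.052, 0.0521 and 0.0708 with a spread per study).

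The promoters of respiratory subunits often hold sites for nuclear respiratory factor NRF1, so the start regions of the called subunits are shown, as RefSeq gives them for GRCm38.p6, in windows of 300 bases that end shortly after the start site. Of the 6 called subunits, 3 have a region in the table (Ndufv1, Sdhd and Uqcrc1). Capitals mark each match to TGCGCA, the repeated unit of the NRF1 motif, which reads the same on both strands.
Uqcrc1 (chr9:108936398-108936697, plus strand): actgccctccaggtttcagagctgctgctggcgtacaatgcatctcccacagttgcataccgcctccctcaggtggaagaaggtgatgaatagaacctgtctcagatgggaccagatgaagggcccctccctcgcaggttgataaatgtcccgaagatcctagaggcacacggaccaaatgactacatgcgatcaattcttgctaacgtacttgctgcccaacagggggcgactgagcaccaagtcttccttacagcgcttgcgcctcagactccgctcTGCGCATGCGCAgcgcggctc
Sdhd (chr9:50603800-50604099, minus strand): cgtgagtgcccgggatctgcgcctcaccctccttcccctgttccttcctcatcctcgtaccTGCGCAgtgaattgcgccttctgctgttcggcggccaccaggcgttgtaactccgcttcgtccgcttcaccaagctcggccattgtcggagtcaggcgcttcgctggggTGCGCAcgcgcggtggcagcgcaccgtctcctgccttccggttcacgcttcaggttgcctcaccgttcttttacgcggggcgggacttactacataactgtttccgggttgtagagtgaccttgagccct
Ndufv1 (chr19:4012706-4013005, minus strand): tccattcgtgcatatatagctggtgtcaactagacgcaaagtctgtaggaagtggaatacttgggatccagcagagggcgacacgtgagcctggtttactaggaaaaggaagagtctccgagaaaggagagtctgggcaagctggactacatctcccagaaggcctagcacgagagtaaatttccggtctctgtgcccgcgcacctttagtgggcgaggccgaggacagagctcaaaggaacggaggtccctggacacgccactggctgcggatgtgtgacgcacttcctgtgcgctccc
Uqcrc1 holds 2 matches side by side just past its start site, Sdhd 2 apart from each other, and Ndufv1 none in this window. TGCGCA was in 8 of 27 respiratory subunits with a region (29.6%), beside 12.9% of 14064 tested genes and 8.79% of 27025 genes with one. A match is a sequence description and not evidence of binding.

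**Figure D4:**
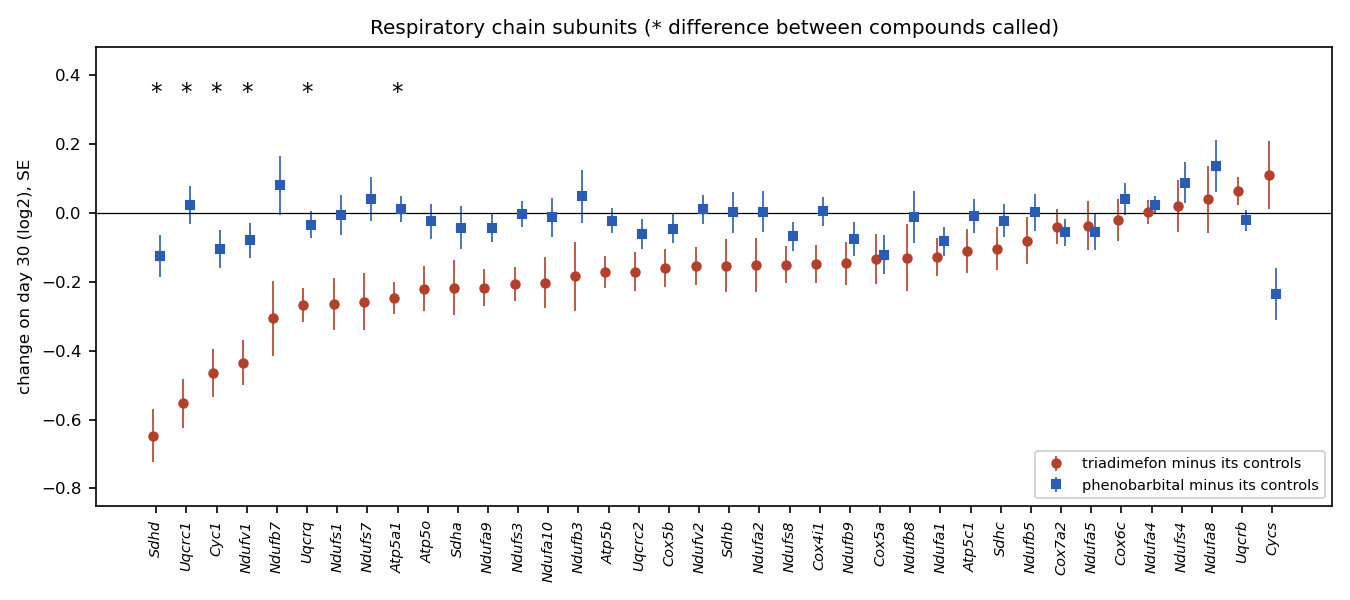
Change on day 30 (vertical axis, log2, with standard error) of the 38 respiratory chain genes under triadimefon (circles) and phenobarbital (squares), ordered by the triadimefon change; asterisks mark the 6 called differences. Most triadimefon changes lie below 0, down to -0.65 for Sdhd, while the phenobarbital changes lie around 0.

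Other hepatocyte lists held a few small calls. Over all genes, 7.14% fell with triadimefon, 0.254% fell with phenobarbital and 3.72% were called in the difference. Of 22 urea cycle and periportal amino acid enzymes, 8 fell with triadimefon and 1 with phenobarbital (3 and 1 with a spread per study), and Nags, which makes the activator of the urea cycle, was called at -0.55 ± 0.14 (SE, adjusted p = 0.0207, or 0.0819 with a spread per study). Nags was at 9.52, 9.74 and 9.96 in triadimefon livers and 10.34, 10.39 and 10.29 in their controls, against 10.01, 10.22, 9.88, 10.11 and 9.89 in phenobarbital livers and 10.13, 10.13, 10.09, 10.19 and 9.82 in theirs. Of 29 fatty acid oxidation and PPAR-alpha genes, 7 fell and 1 rose with triadimefon and 3 fell with phenobarbital (3 fell and 5 fell with a spread per study); besides Vnn1, Hadha, the alpha subunit of the mitochondrial trifunctional protein, was called at -0.38 ± 0.098 (SE, adjusted p = 0.0269, or 0.0906 with a spread per study). Of 27 complement and coagulation genes, F12 (coagulation factor XII) differed by -0.32 ± 0.087 (SE, adjusted p = 0.0348, or 0.0724 with a spread per study). Timp2, a metalloprotease inhibitor, was the 1 call among 25 stellate cell and matrix genes, at -0.80 ± 0.20 (SE, adjusted p = 0.0211, or 0.0613 with a spread per study).

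Proteasome subunits split. Of 31 measured, 5 rose and 1 fell with triadimefon (1 rose and 1 fell with a spread per study), none changed with phenobarbital (2 rose with a spread per study), and 6 were called in the difference. Over all genes, 5.29% rose and 7.14% fell with triadimefon, 0.871% changed with phenobarbital and 3.72% were called in the difference. Psma1, an alpha ring subunit, was at 11.20, 11.10 and 11.22 in triadimefon livers and 10.62, 10.07 and 10.39 in their controls, against 10.97, 11.04, 11.06, 10.95 and 11.25 in phenobarbital livers and 10.91, 10.97, 10.88, 10.88 and 10.92 in theirs. It differed by 0.67 ± 0.13 (SE, adjusted p = 0.004, or 0.0132 with a spread per study), with the conazole-study controls as the low group. Psmb3, a beta ring subunit, was at 9.52, 9.41 and 9.67 in triadimefon livers and 9.98, 9.97 and 10.11 in their controls, against 10.69, 10.54, 10.74, 10.61 and 10.75 in phenobarbital livers and 10.64, 10.63, 10.65, 10.56 and 10.64 in theirs, a difference of -0.52 ± 0.095 (SE, adjusted p = 0.00245, or 0.0141 with a spread per study). Psmd13, Psmb2, Psmd8 and Psmb5 differed by -0.35, -0.34, -0.25 and -0.23, and of these Psmb5 passed with a spread per study (adjusted p = 0.0486).

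Sterol synthesis, the pathway that CYP51 belongs to, showed no called difference in 7 mevalonate enzymes or in 11 enzymes from squalene to cholesterol. Cyp51 changed by -0.42 with triadimefon and 0.099 with phenobarbital, a difference of -0.52 ± 0.29 (SE, adjusted p = 0.365). The median differences were -0.36 and -0.34, and 9 of the 11 later enzymes were negative. Scap, the escort protein that brings SREBP2 to the Golgi, was the 1 call among 10 SREBP2 control and cholesterol uptake genes. It was at 9.94, 9.90 and 9.76 in triadimefon livers and 10.66, 10.59 and 10.78 in their controls, and at 10.90, 10.77, 10.65, 10.82 and 10.82 in phenobarbital livers and 10.96, 11.06, 10.98, 10.99 and 10.90 in theirs. The triadimefon livers were the lowest of the 16 arrays, and the difference was -0.62 ± 0.11 (SE, adjusted p = 0.0017, or 0.0136 with a spread per study), with 1 of the 2 probe sets of opposite sign.

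At the share over all genes (3.72%) lists of the sizes here hold few calls, so nothing is read from a count of none. No member was called in the difference among 14 heat shock proteins, 25 unfolded protein response genes, 15 p53 targets, 23 immediate early genes, 39 cell cycle genes, 20 fatty acid synthesis genes, 25 triglyceride genes, 10 CYP4 hydroxylases, 14 bile acid synthesis enzymes, 21 retinoid genes, 9 thyroid hormone genes, 22 interferon responsive genes, 14 biliary markers, 5 erythroid markers, 12 hepatocyte identity markers, 21 pericentral genes, 22 glucose production genes and 20 clock genes. Interferon responsive genes had median changes of 0.47 under triadimefon and 0.40 under phenobarbital, 1 and none of them called. Of the retinoid genes, 2 rose and 3 fell under each compound, with 1 and 2 shared; with a spread per study, 1 rose and 1 fell with triadimefon, and 3 rose and 5 fell with phenobarbital. Abcc4 was the 1 call among 18 NRF2 responsive genes. Nebl, which codes for the actin-binding protein nebulette, was outside all lists and rose with both, by at least 4.37-fold with triadimefon and at least 2.21-fold with phenobarbital (difference 0.92, 95% interval -0.21 to 2.04).

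On day 4 the same difference of changes was called for 275 genes (1.56%), 150 higher (0.848%) and 125 lower (0.707%), or 0.509% of genes with a spread per study. Of the 227 genes called higher on day 30, 143 had the same sign on day 4, 12 were called in the same direction and 1 in the opposite one, and their median difference was 0.80 on day 30 and 0.13 on day 4. Of the 430 called lower, 253 had the same sign on day 4, 7 were called in the same direction and 1 in the opposite one, and the medians were -0.68 and -0.045. Over all genes 49.5% of the day 4 differences were positive. The 2 days used separate animals. A test of day 30 minus day 4 called 239 genes (1.35%), 88 higher (0.498%) and 151 lower (0.854%), or 0.328% with a spread per study. Among them were 38 of the 227 genes and 88 of the 430. Both sets were chosen by the same day 30 values, which favours larger medians on day 30 and calls in this test.

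The Abcb1a difference was present on both days, at 1.36 on day 4 (adjusted p = 0.00741) and 1.09 on day 30. Tlr4 and Cers6 had day 4 differences of 1.61 and 1.17 that missed the threshold (adjusted p = 0.058 and 0.0805). The Alas1 difference was 2.58 on day 4 (adjusted p = 0.0195) and -1.32 on day 30, which missed the threshold (adjusted p = 0.21), and the 2 days differed by -3.90 (adjusted p = 0.016). Alas1 averaged 11.43 ± 0.74 on day 4 and 11.19 ± 0.32 on day 30 in triadimefon livers, and 8.19 ± 0.25 and 10.92 ± 0.89 in their controls (SD, n = 3 each), so the controls moved more between the days. Cyp2c65 differed on day 4 (-2.32, adjusted p = 0.0155) in the direction it had on day 30. Fbxw9 was called lower on day 4 (-1.89, adjusted p = 0.0146) and higher on day 30. It averaged 7.88 on day 4 and 7.91 on day 30 in triadimefon livers, and 8.28 and 5.095 in their controls. In phenobarbital livers it averaged 8.42 and 8.06, and 6.93 and 7.83 in their controls, so the controls moved more between the days in both studies. The 3' minus 5' Actb signal was 0.728 to 0.888 in day 4 triadimefon livers and 0.883 to 1.36 in their controls, above all day 30 arrays; its part in the day 4 values was not tested.

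**Figure D5:**
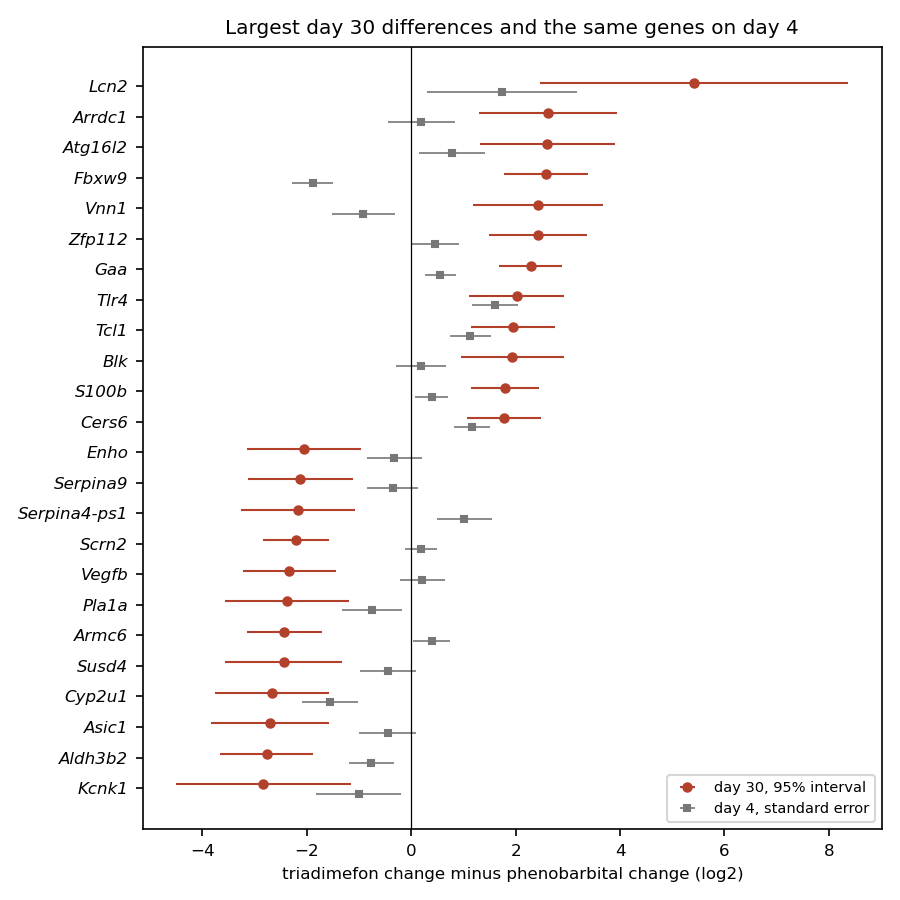
Difference between the triadimefon change and the phenobarbital change (horizontal axis, log2) for the 12 largest higher and 12 largest lower named genes of day 30; circles are day 30 with 95% intervals and squares are day 4 with standard errors. The genes were chosen by their day 30 values, from -2.83 for Kcnk1 to 5.42 for Lcn2; most day 4 values lie nearer to 0, and those of Fbxw9, Vnn1, Armc6, Vegfb, Scrn2 and Serpina4-ps1 lie on the other side of it.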

How the data were processed

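Liver RNA of 38 male CD-1 mice was measured on Affymetrix Mouse Genome 430 2.0 arrays, after Tri Reagent and RNeasy extraction and Enzo biotin labelling, per the labels' protocols. The authors deposited a linear intensity for each of 45101 probe sets, of which 21.15% of values are below 0; the software that summarised probes, and any scaling, are not stated by the labels or the file header.

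The 32 arrays of triadimefon, phenobarbital and their own controls on days 4 and 30 were quantile-normalized, floored at 0 and turned into log2(intensity + 16); a fold change of a dim gene is understated on this scale. The 6 propiconazole arrays were left out because 1 is described as degraded. Of the probe sets, 34958 had 1 gene symbol, 932 several and 9211 no listed gene. Each gene was represented by its brightest probe set, and 17682 genes were tested after 512 with constant values were dropped. limma 3.58.1 (R 4.3.3) fitted 1 mean per group with an intensity trend, and calls are two-sided at a Benjamini-Hochberg adjusted p under 0.05 over all genes. The unequal spread of the studies was handled by an alternative fit with array weights per study (0.589 for conazole and 1.38 for phenobarbital arrays). The code was tested on simulated data. "At least" folds set the brighter group's mean against the higher of background and each dim array's own level.

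Named genes are the 12 largest higher and 12 largest lower called differences above background (clone names and cross-hybridising probe sets left out), up to 4 called members of each of 53 lists, 5 benchmark genes, and the 6 genes most changed by both compounds. The members and lists were chosen with earlier results of these data known. Replicate numbers recur across groups but did not mark pairs: samples with the same number had correlated deviations of -0.109 to 0.0798 over 16 pairs of groups. The precision is limited by the number of arrays, 3 or 5 a group.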

Additional observations from a re-analysis of the deposited data

Results flagged for a closer look

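In 7 of 112 groups of named genes, 1 array lay far from the other 4 of its group on day 30 (log2 level, Dixon's test at the 95% level); chance flags about 5% of such groups, which is 5.6 of 112. Aldh3b2 was 6.43 in replicate 1 of the phenobarbital livers, against 7.07 to 7.24 of the other 4. Asic1 was 4.99 in replicate 2 of the phenobarbital-study controls, against 4.00 in each of the other 4. All of these Asic1 levels were below background, and 4.00 is the floor, so no measurable signal stands apart there. Enho was 8.81 in replicate 5 of the phenobarbital-study controls, against 9.50 to 9.65 of the other 4. Sdhd was 11.91 in replicate 2 of the phenobarbital-study controls, against 11.74 to 11.77 of the other 4. Psmb3 was 10.56 in replicate 4 of the phenobarbital-study controls, against 10.63 to 10.65 of the other 4. Nags was 9.82 in replicate 5 of the phenobarbital-study controls, against 10.09 to 10.19 of the other 4. S100a8 was 7.24 in replicate 1 of the phenobarbital livers, against 8.97 to 9.51 of the other 4. All of these groups belong to the phenobarbital study, since groups of 3 are not tested.

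For 11 named genes, the difference between the compounds itself differed between day 30 and day 4 (limma, adjusted p under 0.05). Day 30 minus day 4, it was 4.47 for Fbxw9, 3.35 for Vnn1, 1.73 for Gaa, -2.82 for Armc6, -2.54 for Vegfb, -2.39 for Scrn2, -3.18 for Serpina4-ps1, -0.54 for Uqcrc1, -0.71 for Psmb3, -0.83 for Nags, -3.90 for Alas1 (log2). All but Alas1 were named for a called day 30 difference, on arrays that this test reuses. That choice favours large values here.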

How the results depend on the processing

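The count of called differences on day 30 (657; 227 higher and 430 lower) moved by over 1.5 times under some settings. With a spread per study it was 296 (89 and 207), with values as deposited 194 (52 and 142), with all 38 arrays, the degraded one included, 82 (33 and 49), and with 37 arrays 384 (119 and 265). With 75th percentile scaling 145 were higher, of 473. It was 460 to 816 under the other changes of normalization, pseudocount, background filter, probe-set rule and day 30 arrays alone, and 508 with the replicate number as a block, a pairing the data did not bear out; with values as deposited 26.8% of calls were higher, against 34.6% in the main result. Leaving out each array in turn gave 484 to 781 (160 to 288 higher and 324 to 505 lower), and 276 of the 657 genes were called in all 16 fits without 1 day 30 array. Triadimefon's own count (2198) was 1030 as deposited, 956 with all 38 arrays and 807 with a spread per study (1625 to 2355 without 1 array). Phenobarbital's own calls (0.871% of genes) were 0.475% with all 38 arrays and 2.31% with a spread per study (0.583% to 1.11% without 1 array). Day 4 calls (1.56%) were 4.49% as deposited, 0.990% with the mean over probe sets, 0.0679% with all 38 arrays, 0.656% with 37, 0.509% with a spread per study and 0.837% with the replicate block (0.718% without triadimefon replicate 1 to 3.18% without triadimefon replicate 3). Calls that differed between days (1.35%) were 2.91% as deposited, 0.701% with percentile scaling and also with 37 arrays, 0.877% with quantile normalization within each study, 0.843% with the mean over probe sets, 0.00566% with all 38 arrays, 0.328% with a spread per study and 0.888% with the replicate block (0.848% without day 4 phenobarbital replicate 4 to 2.0% without day 30 conazole-study control replicate 3). Of the 47 named called genes, 24 kept the call with a spread per study and 24 with values as deposited. With the mean over probe sets 30 kept it, and with all 38 arrays 9. In every fit without 1 day 30 array, 24 of the 47 kept the call. Gstz1 and Cyp3a44 passed in 3 of those 16 fits, Psmd13 in 5, Mrc1 and F12 in 7 and Psmb2 in 8. At least 1 probe set had the opposite sign for Arrdc1, Tlr4, Enho, Psmd13 and Timp2. The sign turned only for 2 benchmark genes that were never called: Cyp2c55 was -0.23 as deposited, -0.16 with percentile scaling, -0.033 with normalization within each study and between -0.010 (without conazole-study control replicate 2) and 0.98 (without replicate 3) when arrays were left out, and Cyp3a11 was -0.16 as deposited and -0.17 with percentile scaling. The cause of these shifts was not tested. No count can be read for genes below background, and Cyp3a11 sits near the top of the range.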

Other observations

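Alas2, the red cell form of the first heme enzyme, was not called in the difference, and 2 of its conazole-study controls were lower than every other day 30 array. It was at 10.84, 10.997 and 11.04 in triadimefon livers, against 8.01, 8.17 and 11.05 in their controls, and between 10.80 and 11.44 on all phenobarbital-study arrays. Triadimefon's own change was 1.88 (adjusted p = 0.00652), and the difference from phenobarbital was 1.73 (adjusted p = 0.0903). The other 4 erythroid markers measured, Hba-a1, Slc4a1, Epb42 and Rhag, had group means below background in all 4 groups.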
